A study of Mus musculus with 6 samples.

Results

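The genes described here write, copy, remove and pair with DNA methylation. They are the maintenance genes *Dnmt1* and *Uhrf1*, the de novo genes *Dnmt3a*, *Dnmt3b* and *Dnmt3l*, the TET dioxygenase genes *Tet1*, *Tet2* and *Tet3*, and the histone H3 lysine 9 (H3K9) methyltransferase genes *Setdb1* and *Ehmt2*. They were taken by gene name, and all 10 were found among the 54532 genes of the deposited table. All are annotated as protein-coding. Polyadenylated RNA was sequenced from whole mouse testes at the age of 5 days postpartum (dpp), in 3 control (Ctrl) and 3 conditional knockout (cKO) samples. The cKO mice came from crosses of *Srsf1* Fl/Fl mice with *Vasa*-Cre mice, so that *Srsf1*, which encodes a splicing factor, was deleted in germ cells. The paper gives the cKO genotype as *Vasa*-Cre *Srsf1* Fl/del, and *Vasa*-Cre acts in the germ line. By this genotype, Sertoli, Leydig and other somatic cells of a cKO testis keep the Fl allele beside a deleted allele. The labels call the other group Ctrl without giving its alleles, and they do not say how many mice went into a sample. The study describes 3 biological replicates per condition.

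DNA methylation is the addition of a methyl group to cytosine, mostly where cytosine precedes guanine (CpG). DNMT1, brought to newly copied DNA by UHRF1, renews the mark after each round of replication. DNMT3A and DNMT3B place it on DNA that lacked it, and DNMT3L, which has no catalytic activity of its own, stimulates them. The TET enzymes oxidise methylcytosine as a step towards its removal. SETDB1 and EHMT2 (also known as G9a) methylate H3K9, a mark of silent chromatin found with DNA methylation at transposons. In the male germ line, DNA methylation is erased in primordial germ cells and laid down again in prospermatogonia before and around birth, when *Dnmt3l* is known for its high expression, and by the first days after birth prospermatogonia give rise to spermatogonia.

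The promoters of *Dnmt1* and *Uhrf1* are shown because the products of this pair act together at replicating DNA and both genes had lower mean levels in cKO testes. The means of *Dnmt3b*, *Setdb1* and *Ehmt2* were lower in cKO testes too. RefSeq (GRCm38.p6) gave 18 windows from 250 bases before to 50 bases after an annotated start site for the 10 genes. The 3 motifs TTTCCCGC, TTTGGCGC and TTTCGCGC, which are forms of the site for E2F, a factor of S-phase genes, were searched on both strands. Only 1 window of *Dnmt1* and 1 window of *Uhrf1* held a match, and 1.84% of the 32851 promoters in the same table did. Capitals mark the matches, and both sequences run 5′ to 3′ on the strand of the gene, chr9:20952574-20952873 (− strand) for *Dnmt1* and chr17:56304063-56304362 (+ strand) for *Uhrf1*.
Dnmt1: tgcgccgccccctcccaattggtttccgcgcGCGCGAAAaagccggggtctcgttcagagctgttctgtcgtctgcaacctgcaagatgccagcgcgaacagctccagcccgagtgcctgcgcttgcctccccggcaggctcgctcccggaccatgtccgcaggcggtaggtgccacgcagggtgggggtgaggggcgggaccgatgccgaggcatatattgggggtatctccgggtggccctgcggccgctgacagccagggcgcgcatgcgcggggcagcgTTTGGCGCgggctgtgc
Uhrf1: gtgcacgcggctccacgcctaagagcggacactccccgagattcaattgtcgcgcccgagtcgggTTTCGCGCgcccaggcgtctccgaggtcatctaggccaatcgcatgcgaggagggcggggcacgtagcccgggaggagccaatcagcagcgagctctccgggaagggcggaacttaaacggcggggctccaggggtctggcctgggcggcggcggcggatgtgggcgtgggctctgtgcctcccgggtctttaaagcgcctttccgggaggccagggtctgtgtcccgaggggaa
The *Dnmt1* window held TTTCGCGC on the opposite strand, beginning 219 bases before the start site, and TTTGGCGC 33 bases after it. The *Uhrf1* window held TTTCGCGC 185 bases before the start site. The motifs TTTCCCGC, TTTGGCGC and TTTCGCGC were found in 1.07%, 0.514% and 0.323% of all promoters, and none of the matches shows that a factor binds. Both windows held 33 CpG, against a median of 7 over all promoters. The windows of these genes without a match held 12 and 2 CpG for *Dnmt1* and 12 for *Uhrf1*. Of the other genes, *Tet2* had a window with 57 CpG and *Dnmt3a* windows with 46 and 47, whereas the 3 windows of *Dnmt3l* held 3, 4 and 6.

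*Srsf1* checked the labels, at 82.1, 89.1 and 88.4 FPKM in the Ctrl samples and 45.1, 46.3 and 51.6 FPKM in the cKO samples. Between 15448191 and 18964743 reads were assigned per sample. In RNA of whole tissue, fewer germ cells and less RNA per germ cell cannot be told apart. By VASA staining at the age sequenced here and at later ages, the study found germ cells still present in cKO testes. It reported a significant loss of germ cells per tubule for the later ages, and did not report such a loss for the age sequenced. At the age sequenced, it reported that part of the germ cells did not complete their move to the basement membrane. It also reported fewer prospermatogonia at that age. The summed level of 20 germ-cell markers was 255.5, 572.5 and 281.5 FPKM for Ctrl 1, 2 and 3, whereas cKO 1, 2 and 3 had sums of 88.6, 129.6 and 98.4 FPKM. Of 10 retina markers, listed because an extraction note in the labels speaks of retinas, 0 reached the filter of a mean of 0.5 FPKM and *Crx* and *Nrl* were at 0 in every sample.

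Of the 10 genes, 9 reached a mean of 0.5 FPKM over the 6 samples and were tested, and *Dnmt3l* was not. At an adjusted p-value of 0.05 in limma, 0 of the 9 were lower and 0 were higher in cKO testes, and 0% of all 16206 tested genes passed this threshold. *Srsf1* itself, with a log2 fold change of −0.85, had an adjusted p-value of 0.058, the lowest over all tested genes. The study called genes in both directions with DESeq2 on read counts at this threshold. A count of 0 here is therefore not an absence of change. The adjusted p-values of the 9 genes lay between 0.219 for *Uhrf1* and 0.636 for *Tet3*. At an unadjusted p-value under 0.05, 1 gene, *Uhrf1*, was lower and 0 were higher, where 9.31% of all tested genes were lower and 6.6% were higher. Without overlap between groups, *Uhrf1* and *Dnmt3b* were lower and *Dnmt3a* was higher in all cKO samples, that is 2 and 1 of 9. Among all tested genes, 12.8% were lower and 10.3% were higher without overlap. The log2 fold change was negative for 5 genes and positive for 4, with a median of −0.14 against 0.0027 over all tested genes. By role, both maintenance genes and both H3K9 methyltransferase genes had negative values, and all 3 TET genes had positive values. Among all 16206 tested genes, 8026 had negative and 8180 positive values. Of the 9 enzyme genes, the 95% confidence interval of *Uhrf1* alone left out 0, so the signs by role are a description.

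**Figure D1:**
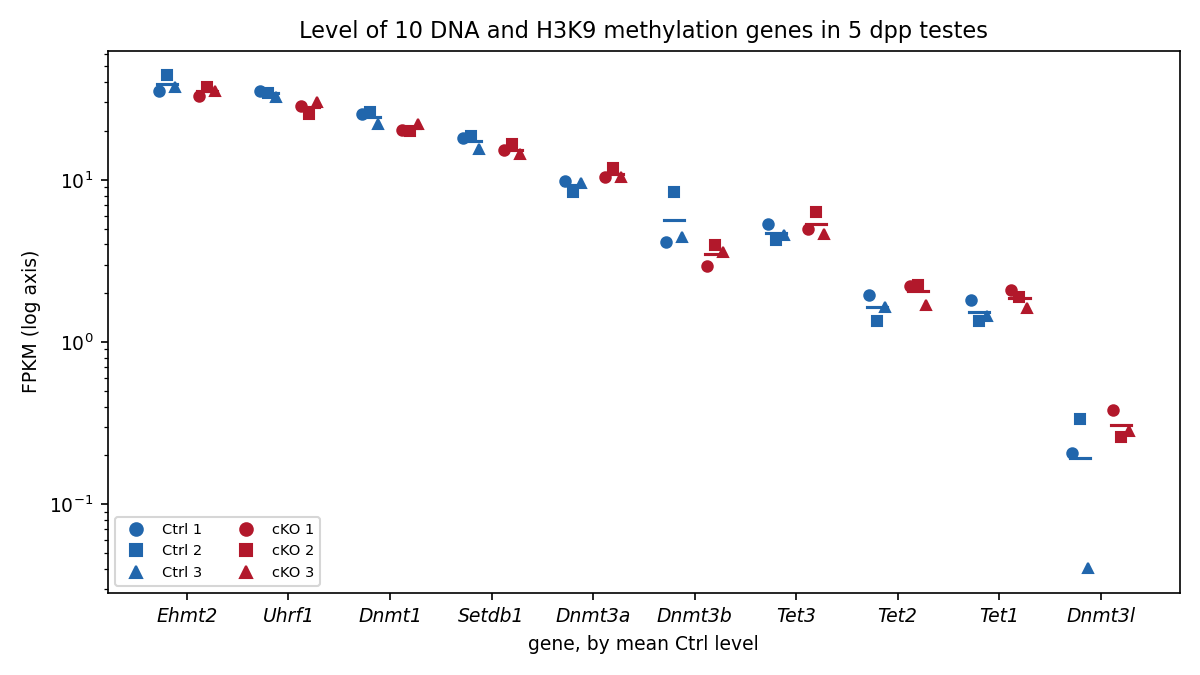
Level of each gene in every sample, in FPKM on a log axis, with Ctrl in blue, cKO in red, a marker shape for each replicate number and a line at the group mean. The genes span a range from *Ehmt2* above 30 FPKM to *Dnmt3l* below 0.5 FPKM, and Ctrl 2 stands above the other samples for *Dnmt3b*.

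FPKM scales reads to the listed gene length, so levels set side by side between genes depend on that length. It need not be the length of the transcripts present. The listed length was 16642 bases for *Dnmt3a* and 6853 for *Setdb1*. In reads, *Dnmt3a*, at 2623 to 3296 per sample, was above *Setdb1*, at 1520 to 2436. The order given here is in FPKM. *Ehmt2* had the highest level in every sample, followed by *Uhrf1*, *Dnmt1*, *Setdb1* and *Dnmt3a* in this order in all 6 samples. *Tet3* came next, above *Dnmt3b*, except in Ctrl 2, where *Dnmt3b* was above *Tet3*. *Tet2*, *Tet1* and *Dnmt3l* closed the order in each sample. The ranges of neighbours in this order overlapped only for *Dnmt3b* and *Tet3* and for *Tet2* and *Tet1* in Ctrl testes, and only for *Tet2* and *Tet1* in cKO testes. In both groups, the maintenance pair and the H3K9 pair were above all de novo and TET genes in FPKM. This did not hold in reads, where *Dnmt3a* was also above *Uhrf1* in every sample but Ctrl 2 and above *Dnmt1* in all cKO samples. Some places in the order were near ties, such as *Ehmt2* at 35.48 and *Uhrf1* at 35.44 FPKM in Ctrl 1.

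*Dnmt1* (ENSMUSG00000004099, chromosome 9, 20907209 to 20959888, − strand of GRCm38) encodes the maintenance methyltransferase. Its level was 25.4, 26.3 and 22.0 FPKM in Ctrl 1, 2 and 3, whereas the samples cKO 1, 2 and 3 held 20.4, 20.0 and 22.3 FPKM. Ctrl 3 lay just below cKO 3, so the groups overlapped. Ctrl testes averaged 24.5 ± 2.28 FPKM and cKO testes 20.9 ± 1.20 FPKM (SD, n = 3 per group), or 85.1% of Ctrl. The log2 fold change was −0.22 (SE 0.095, 95% confidence interval −0.44 to 0.0035), with an adjusted p-value of 0.319.

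*Uhrf1* (ENSMUSG00000001228, chromosome 17, 56303321 to 56323486, + strand) encodes the protein that recognises hemimethylated CpG behind the replication fork and recruits DNMT1. It was at 35.4, 34.4 and 32.6 FPKM in the Ctrl samples and at 28.7, 25.5 and 30.0 FPKM in the cKO samples. The highest cKO sample was below the lowest Ctrl sample. Ctrl testes averaged 34.2 ± 1.41 FPKM and cKO testes 28.1 ± 2.30 FPKM (SD, n = 3 per group), and the log2 fold change was −0.28 (SE 0.088, interval −0.48 to −0.068). The unadjusted p-value was 0.0162 and the adjusted p-value 0.219, so the difference did not pass over all tested genes. A processed pseudogene on chromosome X, *Gm5648*, shares 14.7% of the 50-base stretches of *Uhrf1* transcripts in GENCODE release 21, and it held only 2 to 13 reads per sample where *Uhrf1* held 1817 to 2788.

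The ratio of *Uhrf1* to *Dnmt1* was 1.40, 1.31 and 1.49 in the Ctrl samples and 1.41, 1.28 and 1.35 in the cKO samples. The groups overlapped, with a two-sided exact permutation p of 0.5 (0.6 after adjustment over the 3 ratios and shares tested), where 3 against 3 samples cannot go below 0.1. Both genes are known to be most active in dividing cells. The summed level of 20 cell-cycle genes was 785 to 879 FPKM in Ctrl testes and 635 to 821 FPKM in cKO testes, ranges that overlapped. Of the 20, 7 were lower without overlap and 0 higher, where 12.8% and 10.3% of all tested genes were. Their median log2 fold change was −0.16. The part of cell division and of germ-cell content in the values of *Uhrf1* and *Dnmt1* was not tested.

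*Dnmt3a* (ENSMUSG00000020661, chromosome 12, 3806007 to 3914443, + strand), the more abundant of the catalytic de novo pair, was at 9.85, 8.47 and 9.50 FPKM in the Ctrl samples and at 10.4, 11.9 and 10.4 FPKM in the cKO samples. All cKO samples were above all Ctrl samples. Ctrl testes averaged 9.27 ± 0.714 FPKM and cKO testes 10.9 ± 0.819 FPKM (SD, n = 3 per group). The log2 fold change was 0.21 (SE 0.094, interval −0.0079 to 0.44), with an adjusted p-value of 0.327.

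*Dnmt3b* (ENSMUSG00000027478, chromosome 2, 153649450 to 153687730, + strand) had levels of 4.16, 8.39 and 4.45 FPKM in the Ctrl samples and of 2.94, 3.95 and 3.57 FPKM in the cKO samples. The groups did not overlap, but Ctrl 1 was only just above cKO 2, and Ctrl 2 stood far above all others. Ctrl testes averaged 5.67 ± 2.36 FPKM and cKO testes 3.49 ± 0.513 FPKM (SD, n = 3 per group), or 61.5% of Ctrl. The log2 fold change of −0.52 was the most negative of the 9 tested genes and had the widest interval (SE 0.23, interval −1.07 to 0.024), with an adjusted p-value of 0.331. Without Ctrl 2, it was −0.25, with an adjusted p-value of 0.547. Ctrl 2 also had the highest germ-cell marker sum, and the part of germ-cell content in the level of *Dnmt3b* was not tested.

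*Dnmt3c*, a rodent-specific copy of *Dnmt3b* that is known to methylate young transposons in male germ cells, shares 9.81% of the 50-base stretches of *Dnmt3b*, and these stretches are 23.6% of its own. How many reads fell wholly within such stretches was not measured, so the split of reads between the pair is uncertain. *Dnmt3c* was at 3.42, 2.15 and 3.66 FPKM in the Ctrl samples and at 3.40, 2.18 and 2.33 FPKM in the cKO samples. Unlike *Dnmt3b*, it was at its lowest in Ctrl 2, and its groups overlapped (log2 fold change −0.16, adjusted p-value 0.720).

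*Dnmt3l* (ENSMUSG00000000730, chromosome 10, 78041947 to 78063622, + strand), the de novo cofactor, was near the limit of detection. It was at 0.207, 0.334 and 0.0403 FPKM in the Ctrl samples, from 10, 19 and 2 reads, and at 0.383, 0.261 and 0.282 FPKM in the cKO samples, from 18, 13 and 13 reads. A count of 3 reads would be listed at between 0.0527 and 0.065 FPKM, so Ctrl 3 was below the level of this floor, which covers counting error only. The groups overlapped, and with 2 to 19 reads per sample a difference was not detectable at this depth. *Aire*, on the opposite strand, overlaps *Dnmt3l* and was at 0.0687 to 0.157 FPKM, and reads of such a pair cannot be told apart without strand information.

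The ratio of *Dnmt3a* to *Dnmt3b* was 2.37, 1.01 and 2.13 in the Ctrl samples and 3.55, 3.0 and 2.92 in the cKO samples. All cKO samples were above all Ctrl samples in this ratio, which joins the opposite directions of the pair and was not tested. The ratio of *Dnmt1* to *Dnmt3a* was 2.57, 3.10 and 2.31 in the Ctrl samples and 1.95, 1.69 and 2.13 in the cKO samples, also without overlap and not tested. *Dnmt3l* made up 1.45%, 1.94% and 0.288% of the summed level of the 3 de novo genes in the Ctrl samples and 2.78%, 1.62% and 1.97% in the cKO samples (exact permutation p of 0.2, 0.6 after adjustment).

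*Tet3* (ENSMUSG00000034832, chromosome 6, 83362373 to 83459084, − strand) was the most abundant TET gene. It was at 5.31, 4.25 and 4.60 FPKM in the Ctrl samples and at 4.98, 6.37 and 4.63 FPKM in the cKO samples, with cKO 2 the highest. Ctrl testes averaged 4.72 ± 0.539 FPKM and cKO testes 5.32 ± 0.919 FPKM (SD, n = 3 per group), and the groups overlapped (log2 fold change 0.14, SE 0.13, interval −0.17 to 0.45, adjusted p-value 0.636). This value rested largely on cKO 2, without which it was 0.02, and it was 0.21 without Ctrl 1 and 0.22 without cKO 3.

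*Tet1* (ENSMUSG00000047146, chromosome 10, 62804570 to 62908996, − strand) had levels of 1.81, 1.36 and 1.44 FPKM in the Ctrl samples and of 2.09, 1.89 and 1.62 FPKM in the cKO samples. *Tet2* (ENSMUSG00000040943, chromosome 3, 133463679 to 133545139, − strand) had levels of 1.96, 1.36 and 1.65 FPKM in the Ctrl samples and of 2.22, 2.26 and 1.68 FPKM in the cKO samples. Both genes were lowest in Ctrl 2, and their groups overlapped through Ctrl 1. The log2 fold change was 0.18 (SE 0.13, interval −0.12 to 0.47, adjusted p-value 0.521) for *Tet1* and 0.20 (SE 0.14, interval −0.12 to 0.53, adjusted p-value 0.501) for *Tet2*.

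The summed level of the TET genes was 9.07, 6.97 and 7.69 FPKM in the Ctrl samples and 9.28, 10.5 and 7.93 FPKM in the cKO samples. Ctrl 1 was within the range of the cKO samples. *Tet3* held 59.8% ± 1.26 (SD, n = 3) of this sum in Ctrl testes and 57.5% ± 3.53 (SD, n = 3) in cKO testes. *Tet1*, which is known for its part in the erasure of methylation in germ cells, held 19.9%, 19.5% and 18.8% in the Ctrl samples and 22.5%, 18.0% and 20.4% in the cKO samples (exact permutation p of 0.6, 0.6 after adjustment).

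*Setdb1* (ENSMUSG00000015697, chromosome 3, 95323525 to 95357202, − strand), whose product trimethylates H3K9 at silenced transposons, was at 18.0, 18.7 and 15.6 FPKM in the Ctrl samples and at 15.2, 16.6 and 14.4 FPKM in the cKO samples. The groups overlapped, since Ctrl 3 was below cKO 2. Ctrl testes averaged 17.4 ± 1.62 FPKM and cKO testes 15.4 ± 1.12 FPKM (SD, n = 3 per group). The log2 fold change was −0.17 (SE 0.099, interval −0.40 to 0.064), with an adjusted p-value of 0.450. *Setdb1* overlaps *Cers2* on the opposite strand, which was at 27.8 to 33.4 FPKM, and 10.2% of its 50-base stretches occur in other genes, 7.72% in *Gm4349*. *Gm4349* held 110 to 237 reads per sample where *Setdb1* held 1520 to 2436, and it averaged 3.21 FPKM in Ctrl against 4.78 FPKM in cKO testes, with overlap between groups. The effect of this overlap and sharing on the level of *Setdb1* was not tested.

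*Ehmt2* (ENSMUSG00000013787, chromosome 17, 34898469 to 34914052, + strand), whose product places H3K9 mono- and dimethylation in a complex with that of *Ehmt1*, was at 35.5, 44.1 and 37.1 FPKM in the Ctrl samples and at 32.7, 37.2 and 35.4 FPKM in the cKO samples. The groups overlapped, and Ctrl 2 was the highest. Ctrl testes averaged 38.9 ± 4.56 FPKM and cKO testes 35.1 ± 2.28 FPKM (SD, n = 3 per group), with cKO 1 the lowest sample. Its log2 fold change was −0.14 (SE 0.105, interval −0.39 to 0.11), with an adjusted p-value of 0.552, and −0.09 without cKO 1. Its partner gene *Ehmt1* was at 10.4 to 11.8 FPKM in all samples, with a log2 fold change of −0.04 (adjusted p-value 0.863).

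**Figure D2:**
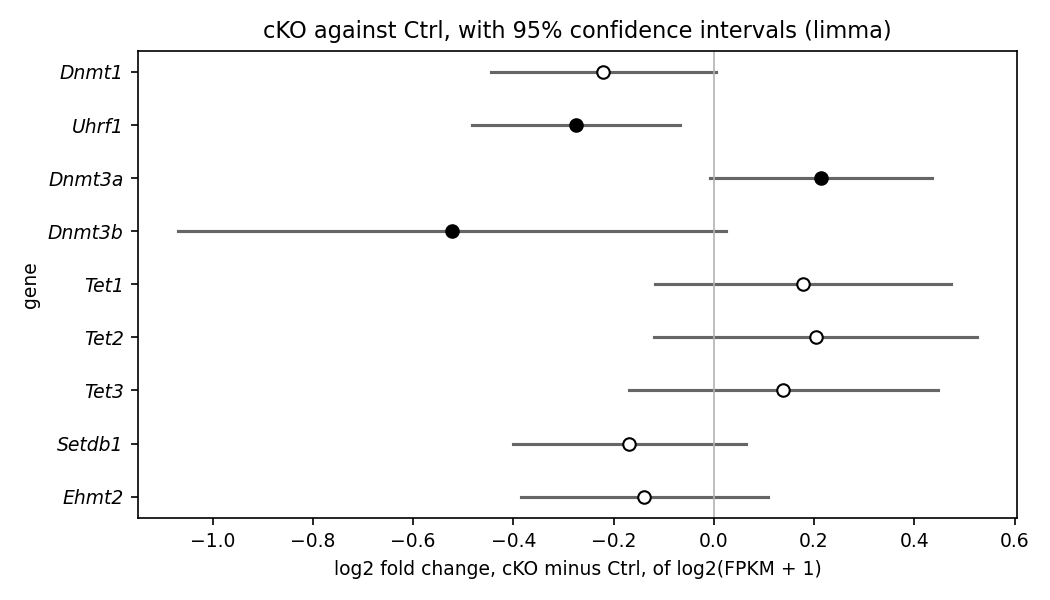
Log2 fold change of cKO over Ctrl on the log2(FPKM + 1) scale for the 9 tested genes, with 95% confidence intervals from limma. Filled points are genes whose groups did not overlap, and the interval of *Uhrf1* alone lies wholly to one side of 0, from −0.48 to −0.068.

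The 3 Ctrl samples differed among themselves in a pattern across these genes. Ctrl 2 had the highest value of all 6 samples for 4 of the 10 genes, *Dnmt1*, *Dnmt3b*, *Setdb1* and *Ehmt2*, and the lowest for 4 others, *Dnmt3a*, *Tet1*, *Tet2* and *Tet3*. Among all tested genes, Ctrl 2 was the highest sample for 25.0% and the lowest for 24.5%. The 4 genes highest in Ctrl 2 all had negative log2 fold changes in cKO testes, and the 4 lowest in Ctrl 2 all had positive ones, a direction to which Ctrl 2 itself contributes. Relative to the mean of Ctrl 1 and Ctrl 3 on the log2 scale, Ctrl 2 was at 0.82 for *Dnmt3b*, 0.27 for *Ehmt2*, 0.15 for *Dnmt1* and 0.15 for *Setdb1*, and at −0.25 for *Tet2*, −0.18 for *Tet3*, −0.17 for *Dnmt3a* and −0.15 for *Tet1*. *Uhrf1* was at 0.015 and so was not set apart in Ctrl 2.

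Without Ctrl 2, the 9 tested genes had log2 fold changes of the same sign as with it. Those of *Dnmt3b* (−0.25), *Ehmt2* (−0.05), *Tet2* (0.12) and *Tet3* (0.08) were smaller by more than 1.5 times, whereas *Uhrf1* was at −0.27 and *Dnmt1* at −0.17. None passed the threshold without Ctrl 2, where the adjusted p-values ran from 0.404 for *Uhrf1* to 0.886 for *Ehmt2*. Ctrl 2 was also the deepest library and had the highest level of the germ-cell genes *Ddx4*, at 65.1 FPKM against 26.3 and 29.9 FPKM in the other Ctrl samples, and *Dazl*, at 120.2 FPKM against 47.0 and 59.3 FPKM. The part of germ-cell content in this pattern was not tested.

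**Figure D3:**
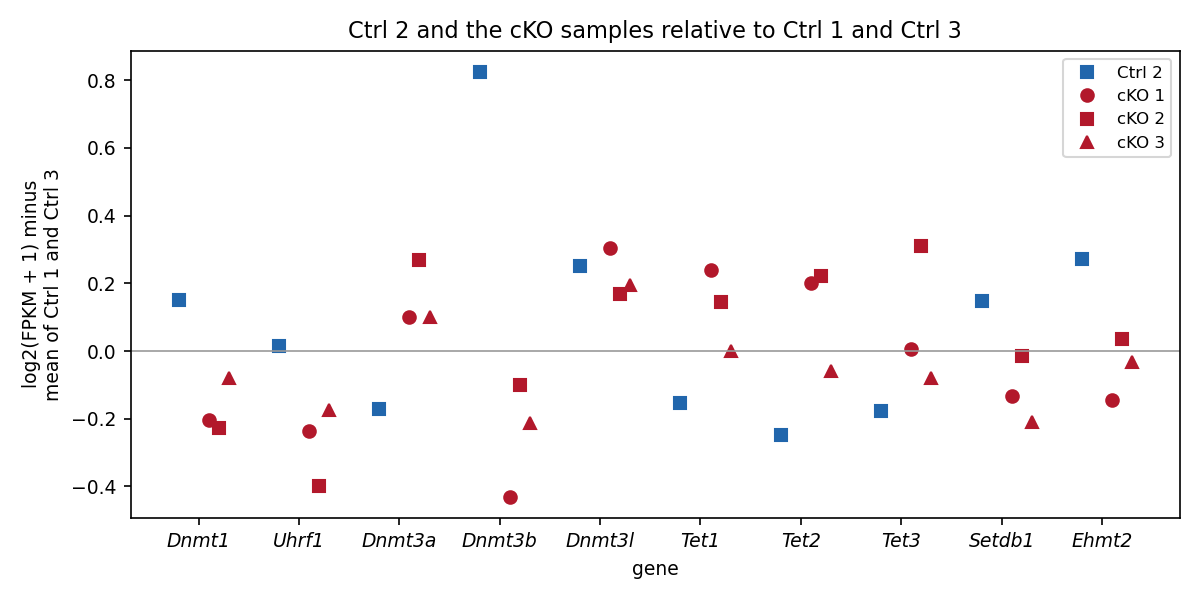
Ctrl 2 (blue square) and the 3 cKO samples (red) relative to the mean of Ctrl 1 and Ctrl 3, as a difference of log2(FPKM + 1). For *Dnmt3b*, Ctrl 2 is at 0.82 while the cKO samples are below 0, and for *Dnmt3a* and the TET genes Ctrl 2 is below 0.

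The other regulators of these marks were described from lists of 59 genes, of which 54 were tested. In limma 0 of them were called in either direction, with a lowest adjusted p-value of 0.111. At an unadjusted p-value under 0.05 in limma, 8 were lower, or 14.8% against 9.31% of all tested genes. At the same level 3 were higher, or 5.56% against 6.6%. Without overlap, 10 were lower, or 18.5% of the 54 against 12.8% of all tested genes, and 4 were higher, or 7.41% against 10.3%. The median log2 fold change of the 54 was −0.049. The counts without overlap given for each list stand beside the same shares of all tested genes, 12.8% lower and 10.3% higher.

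Among 18 partners and readers of DNA methylation, 16 were tested, 4 were lower and 1 was higher without overlap, and the median log2 fold change was −0.075. *Hells*, a chromatin remodeller needed for normal DNA methylation, was at 23.6, 43.0 and 27.2 FPKM in the Ctrl samples and at 15.0, 18.9 and 18.4 FPKM in the cKO samples. Its log2 fold change was −0.77 (SE 0.21, adjusted p-value 0.177), and −0.52 without Ctrl 2. *Kdm1b*, an H3K4 demethylase known for its role in setting oocyte methylation imprints, was at 5.94, 9.01 and 5.30 FPKM in the Ctrl samples and at 3.79, 3.32 and 3.17 FPKM in the cKO samples. Its log2 fold change was −0.78 (SE 0.18, adjusted p-value 0.132), and −0.58 without Ctrl 2. *Dmap1*, a DNMT1-associated protein gene, differed by −0.22 (adjusted p-value 0.329), and the methyl-CpG-binding gene *Mbd1* by 0.14 (adjusted p-value 0.472), or 0.08 without cKO 2.

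Among 12 genes of DNA demethylation and base excision, 11 were tested, 1 was lower and 1 was higher without overlap, and the median was 0.044. *Gadd45a*, a stress-response gene linked to active demethylation, was at 4.76, 3.93 and 4.17 FPKM in the Ctrl samples and at 6.12, 6.28 and 6.24 FPKM in the cKO samples. The cKO samples were close together and all above Ctrl, with a log2 fold change of 0.45 (SE 0.093, adjusted p-value 0.111), and 0.40 without Ctrl 2. *Parp1*, a DNA-break sensor of base excision repair, averaged 43.3 FPKM in Ctrl testes against 33.6 FPKM in cKO testes (log2 fold change −0.35, adjusted p-value 0.147), and −0.29 without Ctrl 2.

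Among 18 other H3K9 methyltransferases and cofactors, 17 were tested, 5 were lower and 0 were higher without overlap, and the median was −0.067. *Setdb2*, a relative of *Setdb1*, was at 3.85, 5.76 and 3.75 FPKM in the Ctrl samples and at 2.84, 2.28 and 2.08 FPKM in the cKO samples, a log2 fold change of −0.67 (SE 0.17, adjusted p-value 0.153). *Suv39h2*, an H3K9 trimethylase gene with high expression in testis, averaged 8.15 FPKM in Ctrl testes against 5.47 FPKM in cKO testes (−0.48, adjusted p-value 0.262). *Mphosph8*, whose product reads H3K9 methylation in the HUSH silencing complex, averaged 22.5 FPKM in Ctrl testes against 16.0 FPKM in cKO testes (−0.45, adjusted p-value 0.234). Without Ctrl 2 the differences were −0.50 for *Setdb2*, −0.30 for *Suv39h2* and −0.27 for *Mphosph8*.

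Among 11 H3K9 demethylases, 10 were tested, 0 were lower and 2 were higher without overlap, and the median was −0.027. *Phf2* was at 7.37, 6.49 and 8.48 FPKM in the Ctrl samples and at 9.20, 11.0 and 9.01 FPKM in the cKO samples, a log2 fold change of 0.35 (SE 0.12, adjusted p-value 0.248). *Kdm4b* differed by 0.15 (adjusted p-value 0.474), by 0.09 without Ctrl 2 and by 0.10 without cKO 2.

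**Figure D4:**
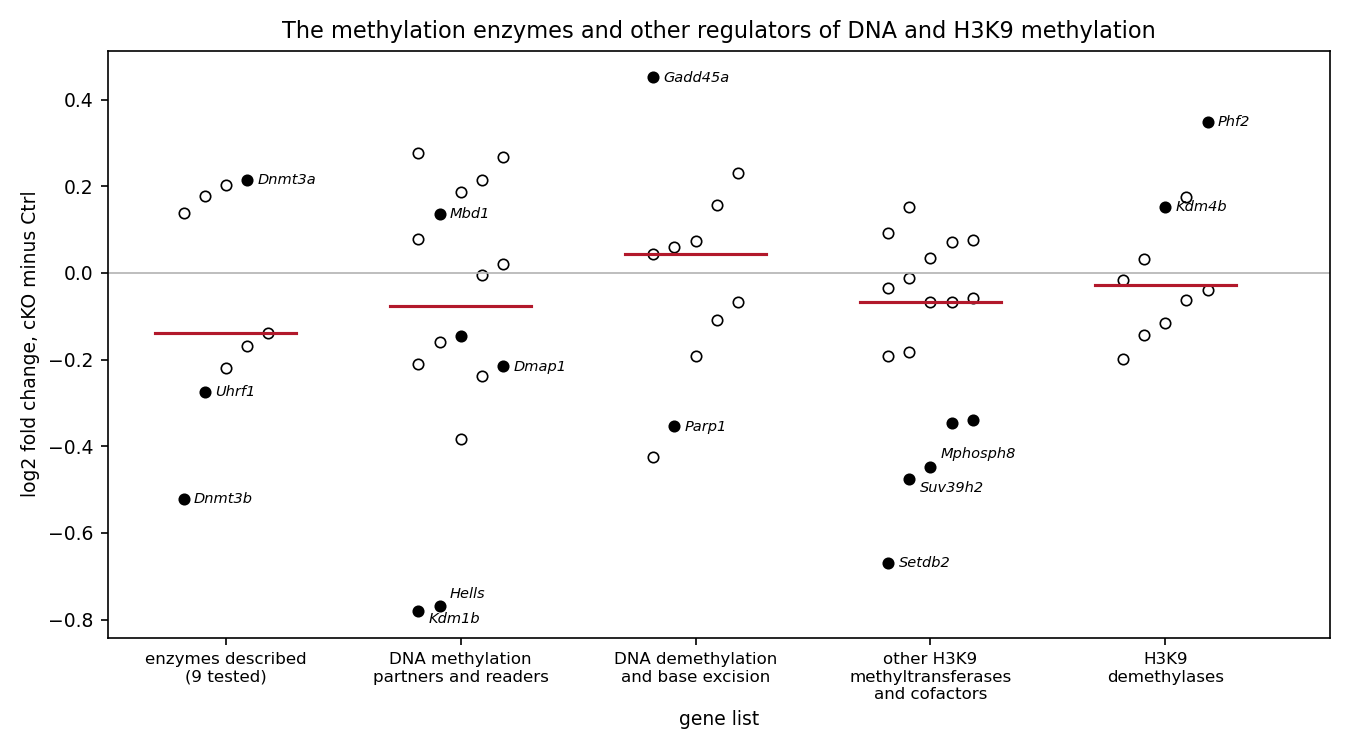
Log2 fold change of cKO over Ctrl for the tested genes of each list, with a red line at the median of the list and filled points for genes whose groups did not overlap. The enzymes described here lie between −0.52 and 0.21, inside the range of the partners and readers, which starts at −0.78 for *Kdm1b*.

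The 20 germ-cell markers, of which 19 were tested, all had negative log2 fold changes, with a median of −1.41. Without overlap, 16 were lower, where 12.8% of all tested genes were. The 9 tested enzyme genes all lay between −0.52 and 0.21. For somatic cells, the median log2 fold change was −0.05 over 15 Sertoli-cell markers, 0.36 over 9 tested Leydig-cell markers, −0.35 over 6 peritubular myoid-cell markers, 0.10 over 10 tested macrophage markers and 0.30 over 7 tested endothelial markers. The Sertoli-cell markers ranged from −0.99 for *Cldn11* to 0.77 for *Amh*, with 3 lower and 2 higher without overlap. Lower and higher without overlap were 0 and 4 Leydig-cell, 2 and 1 myoid-cell, 0 and 0 macrophage, and 0 and 3 endothelial markers. Among all tested genes, these shares were 12.8% and 10.3%. Over 5 erythroid markers the median was 0.69, with summed levels that overlapped, from 438 to 697 FPKM in Ctrl testes and from 526 to 1479 FPKM in cKO testes. How far the cell make-up of the testes enters the level of each enzyme gene was not tested.

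The protein-coding genes nearest in pattern were sought among 12098 genes whose mean reached 1 FPKM, by the root-mean-square difference of centred log2 values over the 6 samples. For *Uhrf1* they included *Wdr24* (0.033) and *Wdr70* (0.034). Their lower level in cKO testes follows from the choice by likeness to *Uhrf1* and is not a separate result. For *Dnmt3l* they were *Lpar4* (0.041), *Zfp235* (0.042) and *Slc35g2* (0.044), a likeness that rests on the 2 to 19 reads of *Dnmt3l* per sample. These values are a description over few samples.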

How the data were processed

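RNA was sequenced from 6 whole testis samples, 3 Ctrl and 3 cKO. The authors aligned paired-end reads to GRCm38 (mm10) with HISAT2 2.0.5, per the submitters' processing notes, counted reads per gene with featureCounts and calculated FPKM (fragments relative to the length of the gene and the depth of the library) from read count and gene length. The authors deposited 1 table of FPKM for 54532 genes, with coordinates and the gene length in bases. The annotation release and the use of strand in counting are not given in the sources used here. All 10 genes had the same coordinates in GENCODE mouse release 21.

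In each sample, deposited FPKM times gene length came in steps of 1 read for 100% of values (tolerance 0.01 reads), which gave back the reads per gene and showed that the FPKM carried median-of-ratios scaling. These totals were 15448191 to 18964743 reads. Limma 3.58.1 in R 4.3.3 was fitted to log2(FPKM + 1) of the 16206 genes whose mean over all samples reached 0.5 FPKM, with 2 groups, no covariate and a mean-variance trend. On this scale the change of low genes is understated. Two-sided p-values were adjusted over all tested genes (Benjamini-Hochberg), with a threshold of 0.05. As an alternative, limma voom was run on the recovered reads. The model was tested on simulated data with log2 changes of 2 in either direction. These are larger than the change of any enzyme gene here, so the simulation does not speak to changes of that size. Sequence shared between genes was counted in stretches of 50 bases. Ratios and shares were compared by exact permutation over samples.

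The 10 genes and the lists were chosen with earlier results of these data known. Named genes were all 10, *Srsf1*, *Dnmt3c*, up to 3 regulators per list in each direction with the largest change, no overlap and a mean of at least 1 FPKM, and the 3 genes most like *Uhrf1* and *Dnmt3l*, of which 1 is not reported here. *Ehmt1* was named after its values were seen, as the partner of *Ehmt2*. The limma p-values set the difference between the group means against the spread of samples within the groups. What that spread covers is open, since the number of mice per sample is not given.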

Additional observations from a re-analysis of the deposited data

How the results depend on the processing

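The 9 tested enzyme genes kept the sign of their log2 fold change under all 16 alternatives, none passed the threshold under any, and the same count of 0 called held for the regulator lists. The lowest adjusted p-value was 0.171 among the enzyme genes, for *Uhrf1* with protein-coding genes only, and 0.058 among the named regulators, for *Gadd45a*. The values ran from −0.32 to −0.21 for *Uhrf1*, −0.30 to −0.17 for *Dnmt1*, −0.68 to −0.25 for *Dnmt3b*, 0.16 to 0.25 for *Dnmt3a* and 0.024 (without cKO 2) to 0.22 for *Tet3*. For *Tet1* they ran from 0.12 to 0.29 and for *Tet2* from 0.12 to 0.33, both highest with voom. Between 0 (without cKO 2) and 3 (without Ctrl 3) of the enzyme genes were lower at an unadjusted p-value of 0.05, and voom had 2 lower and 1 higher. The untested log2 difference of *Dnmt3l* was 0.14 with a pseudocount of 1 and 0.61 with 0.1.

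Over all genes, 0 lower and 0 higher genes became 1 and 4 with TPM, 176 and 37 with protein-coding genes only, and 61 and 22 with voom, and 1 was higher without the mean-variance trend. Leaving out 1 replicate gave 0 to 15 lower and 0 to 3 higher genes, with 15 lower without Ctrl 2. *Srsf1* passed with TPM (−0.86, adjusted p-value 0.036), protein-coding genes only (−0.85, 0.016) and voom (−0.86, 0.025). Why these counts moved was not tested. A fit with a replicate block called 84 lower and 14 higher genes, *Srsf1* was at −0.85 (adjusted p-value 0.033), and 0 enzyme genes were called. The numbers share no stated litter or batch, and deviations of same-numbered samples correlated at 0.066, 0.016 and 0.088, so they were not taken to pair the samples. Scaling by total reads was added after the data were seen and gave the same calls.

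With 3 samples per group, the 95% intervals on the log2(FPKM + 1) scale reach −1.07 for *Dnmt3b* and 0.53 for *Tet2*. That scale understates the change of low genes, so larger log2 fold changes are not excluded. The values were −0.65 for *Dnmt3b* and 0.33 for *Tet2* with voom, against −0.52 and 0.20 on that scale. The interval of *Uhrf1* alone leaves out 0. The depth limits *Dnmt3l* most, at 2 to 19 reads per sample. Whole tissue mixes germ and somatic cells, and gene totals say nothing about splice forms, protein or methylation itself.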
